A study of Mus musculus with 12 samples.

Results

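Confluent monolayers grown from mouse colonic crypts for 4 days, the day of highest electrical resistance in the series, were compared with colonic crypts across all genes, with most weight on genes of barrier, cell adhesion and transport. The members were the 3 libraries labelled day 4 monolayers and the 3 labelled colonic crypts, 6 of 12 libraries in all. Both groups came from WT mouse colon at an age of 6 to 10 weeks, and the strain was not given. For the monolayers, isolated crypts were first cultured on collagen, and the cells were then replated on scaffolds with a gradient of cross-linking, where the monolayer closed within 3 to 5 days. The whole layer was lysed for RNA. Per the labels the resistance was 623 ± 15 ohm cm2 on day 4, against 526 ± 56 on day 3 and 407 ± 53 on day 5, with the kind of error not named, and no value is given for crypts. The other 6 libraries, 3 of day 3 and 3 of day 5 monolayers, entered the same fit and served to show where day 4 differed from the days around it. The labels do not say that replicates were separate cultures or animals, so p-values measure the spread between these libraries, which may be technical.

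An epithelium holds back ions and solutes at the tight junction, where claudins set which ions pass between cells and scaffold proteins tie the strands to a contractile ring of actin and myosin. Adherens junctions and desmosomes join neighbouring cells, and hemidesmosomes and integrins join them to a basement membrane. In the colon, surface cells take up sodium, chloride, water and short-chain fatty acids, crypt cells secrete chloride and bicarbonate, and goblet cells cover the surface with mucus.

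Day 4 libraries held 8289826 to 12227445 counts in genes, and crypt libraries 4518314 to 9939045. Of all reads counted, 38.7 to 40.3% lay in no gene at day 4 and 45.6 to 49% in crypts. The nuclear RNA Malat1 took 7.4 to 8.05% of gene counts at day 4 and 2.02 to 2.34% in crypts, a log2 difference of 1.98. The part of either measure in the results below was not tested. Pearson's r of log2 CPM (counts scaled to a common library size), over the genes tested, was 0.977 to 0.979 among day 4 libraries, 0.949 to 0.957 among crypt libraries and 0.719 to 0.735 between them. In these bulk samples, fewer cells of a type and less RNA per cell cannot be told apart. All levels below are CPM after TMM scaling, with the values of replicates 1, 2 and 3 in that order.

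Of 23420 genes in the files, 12863 had enough counts to be tested. Between day 4 and crypts 7339 genes, or 57.1%, were called at an adjusted p under 0.05 (edgeR quasi-likelihood test, Benjamini-Hochberg adjustment), 3686 of them higher at day 4 (28.7%) and 3653 lower (28.4%). Past 2-fold, 1891 called genes were higher and 2262 lower, and past 16-fold 433 were higher and 599 lower. The median log2 fold change, day 4 minus crypts, was -0.02. With library totals in place of TMM scaling that median was -0.19, and 2945 genes were called higher and 4416 lower, so 40% of calls were higher at day 4 in place of 50.2%. Directions below are relative to the TMM-scaled median. No called gene named here changed sign with library totals. The uncalled genes Ocln, Amot, Dsg2, Dsc2, Ilk, Slc12a2, Ano1 and Slc6a6, which are above 0 with TMM, are below 0 there.

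**Figure D1:**
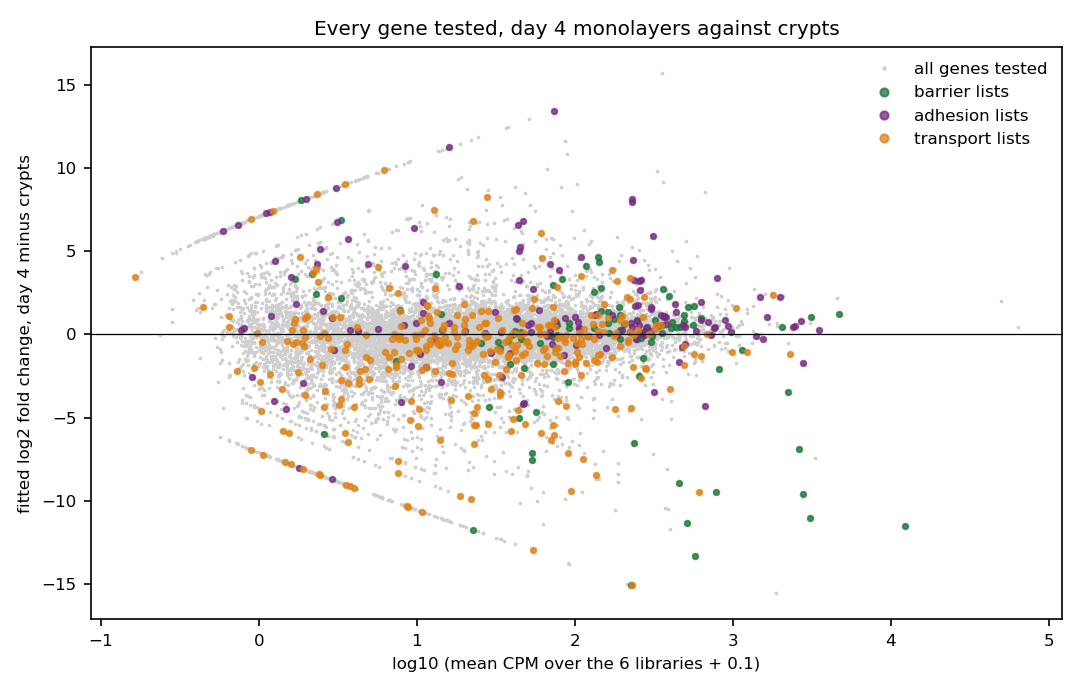
Fitted log2 fold change of each of the 12863 genes tested, day 4 minus crypts, against the log10 of its mean CPM over the 6 libraries, with members of the barrier, adhesion and transport lists in colour. The straight lines of points at the upper and lower edges are genes without a count in 1 of the groups, whose fitted fold changes are no bounds, and transport members lie more often below the zero line than above it.

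The barrier, adhesion and transport lists held 930 genes of the files, of which 577 were tested. Among those, 216 rose and 224 fell at day 4, so 76.3% were called against 57.1% of all genes tested. Members were chosen with earlier results of these data known, so shares of members are no independent test. The themes differed in direction. Barrier genes numbered 49 higher and 35 lower of 96 tested, with a median log2 fold change of 0.32. Adhesion genes numbered 90 higher and 27 lower of 148, with a median of 0.66. Transport genes numbered 77 higher and 163 lower of 335, with a median of -0.59. Under library totals the same counts were 45 and 40, 80 and 30, and 65 and 180. The 3 day 4 values did not overlap the 3 crypt values in 450 of the 577 members, beside 62.3% of all genes tested.

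**Figure D2:**
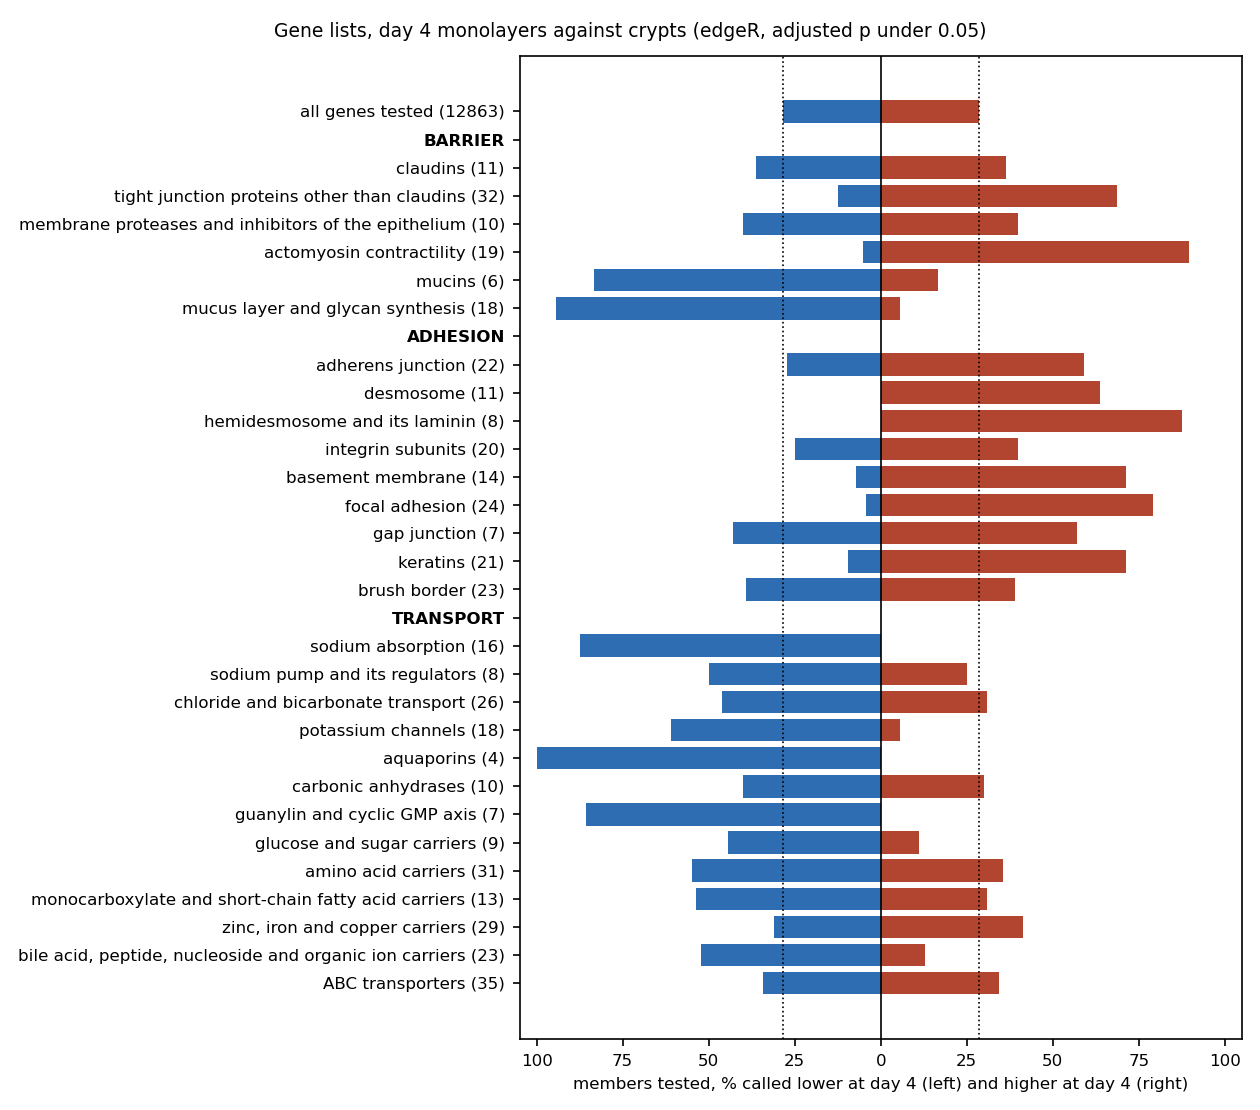
Share of the tested members of each list called lower (blue, left) and higher (red, right) at day 4 than in crypts, with the number tested in brackets and dotted lines at the shares of all genes, 28.4% and 28.7%. Bars of the adhesion lists reach mostly to the right, and those of the mucus, sodium absorption, aquaporin and guanylin lists mostly to the left.

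Claudins, the strand-forming proteins of the tight junction, changed in both directions. Of 11 claudins tested, 4 rose, 4 fell and 3 were not called. Cldn4, a claudin known to seal against cations, stood at 236, 206 and 223 CPM at day 4 and at 16, 16.8 and 8.12 CPM in crypts. All day 4 libraries lay above all crypt libraries, and Cldn4 rose by 4.08 ± 0.18 on the log2 scale (SE; adjusted p = 1.28e-12). Cldn6, a claudin of early embryonic epithelium, had no count in crypts and 2.07, 5.23 and 3.15 CPM at day 4, at least 27.4-fold higher when its crypt level is set to a pooled 3 counts, the floor used for every gene at 0. The other claudins that rose were Cldn25 (0.91 ± 0.15) and Cldn9, which rose by 2.43 ± 0.78 from low counts, by 4.32 without crypts replicate 1 and by 1.68 without crypts replicate 3. In the fit of the 6 libraries alone Cldn9 was not called.

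The claudins that form pores for small cations and water fell. Cldn2 stood at 95.5, 103 and 123 CPM in crypts and at 0.0861, 0.28 and 1.57 CPM at day 4. Its fitted log2 fold change was -7.53 ± 0.41 (adjusted p = 2.21e-11), which became -6.94 with day 4 replicate 1 left out and -9.12 without day 4 replicate 3, the library with its highest day 4 level. Cldn15, the other pore former of the gut, went from 110, 99 and 122 CPM in crypts to 6.29, 4.3 and 1.94 CPM (-4.68 ± 0.29, adjusted p = 1.3e-10). Cldn8, a sealing claudin of the distal colon, went from 61.3, 60.9 and 42 CPM to 2.76, 2.9 and 2.18 CPM (-4.37 ± 0.28). None of these 3 genes had overlapping groups. The abundant claudins of colonic epithelium moved little: Cldn3 stood at 306, 296 and 297 CPM against 310, 335 and 317 CPM and was not called (-0.1 ± 0.09, adjusted p = 0.364), although library totals called it lower. Cldn7 fell by 0.29 on the log2 scale, a call that was lost without crypts replicate 2 (-0.2). Cldn23 (-0.03 ± 0.24) and Cldn12 (-0.27 ± 0.13) were not called, the second with a call of lower under library totals (-0.44), with the 8 CPM filter (-0.34) and without day 4 replicate 3 (-0.37).

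Occludin and the other tight junction proteins mostly kept or raised their levels. Of 32 members tested, 22 rose, 4 fell and 6 were not called, with a median of 0.7. Ocln itself, the first transmembrane protein known from the tight junction, stood at 173, 176 and 155 CPM at day 4 and 172, 152 and 152 CPM in crypts, and was not called (0.09 ± 0.09). Its relatives of the tricellular junction and beyond, Marveld2 and Marveld3, fell by 0.48 and 0.54 on the log2 scale, the first not called without day 4 replicate 1. F11r, a junctional adhesion molecule, rose from 88.3, 96.7 and 94.5 CPM to 253, 213 and 232 CPM (1.32 ± 0.09, adjusted p = 3.95e-10). Lsr, an angulin that marks tricellular contacts, rose by 0.91 ± 0.11, and Igsf5 fell by 0.79 on the log2 scale.

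Scaffold proteins are part of the same list. Tjp1, the ZO-1 protein that links strands to actin, went from 256, 268 and 232 CPM in crypts to 829, 764 and 780 CPM (1.65 ± 0.09, adjusted p = 1.02e-11). Its relative Tjp3 was not called (-0.19 ± 0.08, adjusted p = 0.0593), although library totals, DESeq2 and the 8 CPM filter called it lower. Paracingulin, Cgnl1, a scaffold of the junctional plaque, went from 96.5, 90.6 and 102 CPM to 612, 613 and 658 CPM (2.7 ± 0.09), whereas cingulin, Cgn, rose by 0.4 ± 0.08. For both genes the groups stood apart without overlap. Of the polarity proteins, Pard6b rose by 2.57 ± 0.13, Inadl by 1.09, Mpp5 by 1.17 and Prkci by 0.69. Pard3 (-0.05 ± 0.1) and Crb3 (0.22 ± 0.15) were not called, and Prkcz fell by 0.79 on the log2 scale.

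Angiomotins, scaffolds that bind the YAP coactivator and actin at junctions, included the member with the largest rise. Amotl2 stood at 267, 265 and 279 CPM at day 4 and 10.2, 9.92 and 11.7 CPM in crypts (4.65 ± 0.13, adjusted p = 3.4e-15), and Amotl1 at 133, 157 and 159 against 16, 15.8 and 12.9 CPM (3.35 ± 0.12). Amot, the third of the family, was not called (0.12 ± 0.14). Ajuba, a LIM protein of adherens junctions that restrains the Hippo kinases, went from 2.2, 1.3 and 3.97 CPM to 83, 81 and 95.8 CPM (5.01 ± 0.22, and 5.68 without crypts replicate 3). Amotl2 and Ajuba showed the largest rises of the tight junction and adherens junction lists among members with more than 3 crypt counts, and both are known targets of YAP with TEAD factors. The 250 bases upstream of their start sites are shown with the letters GGAATG, the core that TEAD proteins are known to bind, searched on both strands. The sequences are from RefSeq on build GRCm38.p6, written 5′ to 3′ on the strand of the gene, at chr9:102717554-102717803 (plus strand) for Amotl2 and chr14:54577662-54577911 (minus strand) for Ajuba. GENCODE gives both genes the same strands. The letters after the start site were found in a GENCODE transcript of Amotl2 but not of Ajuba, so the direction of the Ajuba letters rests on the RefSeq table alone. Capitals mark CATTCC, which is GGAATG on the other strand.
Amotl2: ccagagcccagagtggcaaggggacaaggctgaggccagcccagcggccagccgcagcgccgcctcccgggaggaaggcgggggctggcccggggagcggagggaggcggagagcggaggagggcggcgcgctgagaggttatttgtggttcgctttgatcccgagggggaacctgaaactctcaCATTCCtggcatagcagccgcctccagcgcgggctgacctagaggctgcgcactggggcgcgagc
Ajuba: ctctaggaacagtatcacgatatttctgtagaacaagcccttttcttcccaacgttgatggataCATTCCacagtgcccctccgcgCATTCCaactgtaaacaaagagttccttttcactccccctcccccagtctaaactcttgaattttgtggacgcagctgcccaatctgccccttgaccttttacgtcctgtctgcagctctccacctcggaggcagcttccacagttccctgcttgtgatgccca
The Amotl2 window held 1 match and the Ajuba window 2. Of 32851 RefSeq windows of this length, 12.6% held at least 1 match and 1.02% held 2 or more. Some members had more than 1 window and counted as a match when any window held the letters. Counts of members therefore do not compare with the 12.6% of windows. Of the 35 members of the 2 lists that rose, 21 had a window and 5 of these a match, Amotl2 and Ajuba among them. Among the 10 that fell, 6 had a window and none of these a match, and among the 9 not called, 6 had a window and 1 a match. A match describes the letters of the window and not a bound site.

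Genes of the contractile ring rose together, 17 of 19 tested, with 1 lower, 1 not called and a median of 1.06. Myh9, the heavy chain of nonmuscle myosin IIA, went from 2220, 1940 and 1960 CPM to 4240, 4180 and 4370 CPM (1.06 ± 0.08, adjusted p = 1.96e-09), and Actb, cytoplasmic actin, rose by 1.21 ± 0.1. Tropomyosins, which stabilise actin filaments, gained unequally. Tpm2 rose from 7.41, 19.7 and 11.5 CPM to 297, 251 and 272 CPM (4.37 ± 0.19), Tpm4 rose by 2.31 ± 0.08 and Tpm1 by 0.57 ± 0.07. Arhgap29, a brake on RhoA, rose by 2.95 ± 0.14, while RhoA itself, Rhoa, rose by 0.75 and its kinases Rock1 and Rock2 by 0.44 and 1. The member that fell was Mylk, the myosin light chain kinase known for opening the tight junction, from 51.9, 90.4 and 87.5 CPM to 19.2, 16.3 and 20.2 CPM (-2.05 ± 0.18, adjusted p = 2.05e-08). Among 10 membrane proteases and their inhibitors, 4 rose and 4 fell. Tmprss4, a serine protease of the surface, fell by 1.77 on the log2 scale and Prss32 by 2.5, Tmprss2 rose by 0.81, and matriptase, St14, fell by 0.48 while its inhibitor Spint1 rose by 0.6.

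**Figure D3:**
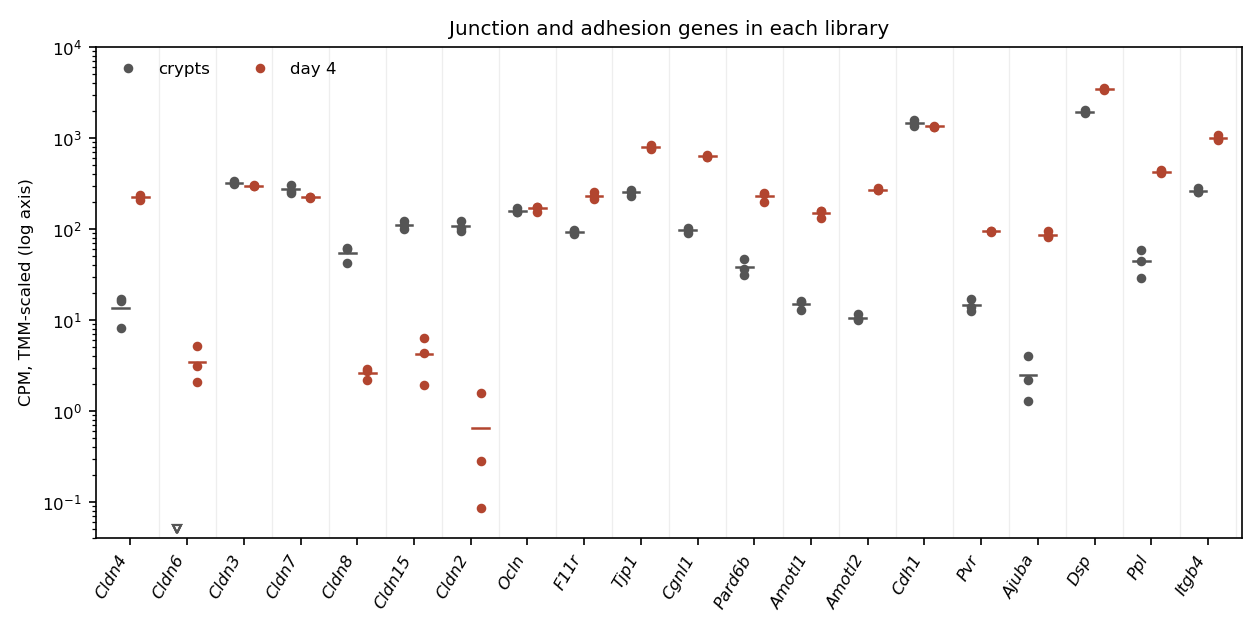
TMM-scaled CPM of junction and adhesion genes in each library on a log axis, crypts in grey and day 4 in red, with bars at group means and open triangles at the foot for libraries without a count. Cldn2, Cldn8 and Cldn15 lie lower at day 4, Tjp1, Cgnl1, Pard6b, the angiomotins, Ajuba and Itgb4 higher, and Ocln and Cdh1 overlap.

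Genes of the mucus barrier fell. Of 18 genes of the mucus layer and its glycans, 17 fell and 1 rose, with a median of -7, and of 6 mucins 5 fell and 1 rose. Muc2, the gel-forming mucin of the colon, stood at 26000, 23200 and 24500 CPM in crypts and at 9.04, 11.2 and 4.84 CPM at day 4 (-11.49 ± 0.66, adjusted p = 4.46e-11). Fcgbp, which cross-links the mucus, went from 9000, 3210 and 4450 CPM to 9.22, 5.42 and 6.3 CPM (-9.62 ± 0.39). Agr2, the isomerase that folds mucin, fell by 9.49 on the log2 scale. Zg16, a lectin that keeps bacteria off the surface, fell by 11.31 on the log2 scale, a value of -12.62 without day 4 replicate 2. B3gnt6, which builds the core 3 glycan of mucin, had no count at day 4 and was at least 500-fold lower.

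Membrane mucins fell less: Muc13 by 0.92 on the log2 scale, from 1490, 1660 and 1350 CPM to 884, 753 and 747 CPM, and Muc4 by 2.06. Muc20 rose, by 3.65 ± 0.43, by 4.84 without crypts replicate 2 and by 3.03 without crypts replicate 3. Muc1, which fell by 1.63 on the log2 scale with overlapping groups, was not called without crypts replicate 2 (-0.86). The branching enzyme Gcnt1 rose by 2.78 ± 0.19, the glycan member that went up. C1galt1 was near the threshold (adjusted p = 0.0458), with overlapping groups, and lost its call under most of the left-out libraries. Pigr, the receptor that carries immunoglobulin A to the lumen, fell from 5000, 4970 and 5660 CPM to 63, 42.6 and 27 CPM (-6.87 ± 0.31). Of 13 goblet cell markers, which all fell, 10 are themselves in the mucus or mucin lists, so their summed level, 22.4 to 35.4 CPM at day 4 and 34600 to 52500 CPM in crypts, is largely that of the same genes. The other 3 are Atoh1, the factor that commits secretory cells, Tpsg1 and Ccl9. Atoh1 stood at 76.1, 66.4 and 71.7 CPM in crypts and Tpsg1 at 32.2, 32.4 and 31.5 CPM, and both had no count at day 4. Ccl9 fell by 7.51 on the log2 scale. The part of goblet cell number in the fall of mucus genes was not tested.

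Adherens junction genes rose in 13 of 22 cases, 6 fell and 3 were not called, with a median of 0.42. E-cadherin, Cdh1, stood at 1330, 1370 and 1320 CPM at day 4 and 1340, 1590 and 1450 CPM in crypts and was not called (-0.12 ± 0.08, adjusted p = 0.194). Library totals, DESeq2, the 8 CPM filter and the fit without crypts replicate 1 called it lower. Its intracellular partners rose: Ctnna1 by 0.85 ± 0.09, Ctnnb1 by 0.46 ± 0.08, Ctnnd1 by 0.57 ± 0.1 and vinculin, Vcl, by 1.14 ± 0.09. The nectin family, immunoglobulin-like adhesion molecules that start cell contacts, split. Pvr went from 17, 14 and 12.5 CPM to 95.4, 93.2 and 94.7 CPM (2.73 ± 0.16), Pvrl4 rose by 2.92 ± 0.24 and Pvrl2 by 1.23 ± 0.09, while Pvrl1 fell by 2.85 and Pvrl3 by 0.59 on the log2 scale.

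Epcam, an adhesion molecule that binds claudins, stood at 1620, 1370 and 1280 CPM at day 4 and 1560, 1940 and 1620 CPM in crypts, with overlapping values (-0.26 ± 0.1, adjusted p = 0.0301). That call was lost without day 4 replicate 2, day 4 replicate 3 or crypts replicate 2, and in the fit of the 6 libraries alone. Ceacam1, a carcinoembryonic antigen-related adhesion molecule, fell from 3930, 5050 and 3850 CPM to 1360, 1290 and 1280 CPM (-1.71 ± 0.11).

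Of 11 desmosome genes tested, 7 rose and none fell (edgeR; 0 lower also at an unadjusted p under 0.05 and by DESeq2). Periplakin, Ppl, which ties keratin to the plaque, went from 29.2, 44.8 and 58.7 CPM to 447, 409 and 429 CPM (3.24 ± 0.17, adjusted p = 7.89e-12). Desmoplakin, Dsp, rose by 0.83 ± 0.08 and the plakophilins Pkp1, Pkp2 and Pkp4 by 1.47, 1.01 and 1.14. The cadherins of simple epithelium, Dsg2 (0.13 ± 0.1) and Dsc2 (0.08 ± 0.11), were not called, with overlapping groups. Dsg3, the cadherin of stratified epithelium, had 4.57, 3.83 and 2.91 CPM at day 4 and no count in crypts, at least 30.6-fold higher.

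Genes of attachment to the matrix mostly rose. Among the 8 hemidesmosome genes tested, 7 rose and Dst was not called. Its integrin pair is Itga6 with Itgb4. Itgb4 went from 255, 279 and 256 CPM to 942, 974 and 1070 CPM (1.92 ± 0.1, adjusted p = 1.06e-11) and Itga6 rose by 1.07 ± 0.08. Lama3 and Lamb3, chains of the laminin they bind, rose by 1.76 ± 0.1 and 1.66 ± 0.1, the first from 112, 122 and 111 CPM to 413, 418 and 336 CPM.

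Of 14 basement membrane genes tested, 10 rose, 1 fell and 3 were not called, with a median of 3.24. Lama5, the alpha chain of the mature epithelial laminin, stood at 588, 575 and 674 CPM at day 4 and 9.41, 10.6 and 9.83 CPM in crypts (5.94 ± 0.13, adjusted p = 1.51e-16). Collagen IV showed the largest change, with Col4a2 at 432, 454 and 490 CPM against 1, 2.61 and 1.17 CPM (8.15 ± 0.18, adjusted p = 1.96e-16). Col4a1, its partner chain, rose by 7.98 ± 0.37, by 10.76 without crypts replicate 2 and by 7.16 without crypts replicate 3, and crypts replicate 2 held its highest crypt level. Nid1 rose by 5.28 (6.8 without crypts replicate 2, 4.46 without crypts replicate 3) and Lamc1 by 3.85 ± 0.14. The heparan sulphate proteoglycan Hspg2, perlecan, fell by 1.11 on the log2 scale, while Agrn, agrin, which also carries heparan sulphate, rose by 2.64 ± 0.15. Col18a1, a collagen with such chains, went from 1.8, 1.57 and 0 CPM to 82.1, 89.1 and 87.9 CPM (6.55 ± 0.34, 7.2 without crypts replicate 2 and 5.69 without crypts replicate 3). Fibroblasts also make collagen IV and laminins. Of 18 fibroblast and smooth muscle markers 7 passed the filter on low counts, and the list summed to 2.15 to 5.09 CPM at day 4 and 27.1 to 115 CPM in crypts. Col3a1 and Dcn had no count at day 4, and DESeq2 did not call Dcn (adjusted p = 0.0791). The part of fibroblasts in the levels of basement membrane genes was not tested.

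Integrins, the receptors for matrix, went both ways. Of 20 subunits, 8 rose, 5 fell and 7 were not called. Itgav, the alpha chain of vitronectin receptors, went from 45.7, 57.3 and 48.3 CPM to 493, 460 and 429 CPM (3.19 ± 0.1, adjusted p = 1.3e-14). Itga3, Itga2 and Itgb6 rose by 1.73, 1.06 and 0.98, and Itgb1, the common beta chain, by 1.14 ± 0.1. The subunits that fell were Itga1, by 1.89 on the log2 scale, and those of leukocytes, Itga4, Itgae, Itgam and Itgb2, of which Itga4 and Itgb2 had no count at day 4. Itgae fell by 2.91 (2.29 without day 4 replicate 1, 3.74 without day 4 replicate 3) and Itgam by 3.98, a value of -7.35 without day 4 replicate 1 and not called without day 4 replicate 2 or day 4 replicate 3. Of the 11 tested leukocyte markers, which include Itgae and Itgam themselves, 8 fell and 2 rose. The whole list summed to 37.1 to 54.6 CPM at day 4 and 32.6 to 76.7 CPM in crypts, ranges that overlap. Gzma, Cd3g, Cd52 and Cd8a were at 0 at day 4, but these 4 do not stand for the whole list. DESeq2 did not call Gzma, Cd3g or Cd52 (adjusted p = 0.109, 0.123 and 0.126). The part of leukocytes in the fall of these integrins was not tested.

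Focal adhesion genes rose in 19 of 24 cases and 1 fell (2 under library totals). Flna, a filamin that cross-links actin, went from 13.8, 27.1 and 18.4 CPM to 370, 492 and 479 CPM (4.47 ± 0.18, adjusted p = 2.49e-13). The caveolar genes rose from near 0: Ptrf by 4.64 ± 0.17, Cav2 by 4.23 ± 0.22 and Cav1 by 6.8 ± 0.35 (7.39 without crypts replicate 1 and 5.93 without crypts replicate 3). Actn1 rose by 1.83 and Lpp by 1.37. Paxillin, Pxn (-0.07 ± 0.09), and integrin-linked kinase, Ilk (0.1 ± 0.16), were not called, and Parva fell by 0.61 on the log2 scale.

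Keratins, the intermediate filaments anchored at desmosomes, rose in 15 of 21 cases and fell in 2, with a median of 2.25. Krt7 went from 141, 159 and 120 CPM to 1360, 1500 and 1490 CPM (3.38 ± 0.11, adjusted p = 2.45e-14) and Krt18 from 540, 500 and 515 CPM to 2420, 2440 and 2540 CPM (2.25 ± 0.09). Krt8, the partner of Krt18, rose by 0.29 ± 0.07, a call lost under library totals, and Krt19 by 0.5 ± 0.08. Krt20, the keratin of differentiated surface cells, fell from 894, 1560 and 1350 CPM to 83.6, 59.7 and 44.7 CPM (-4.33 ± 0.22). Krt4, of stratified mucosa, had 105, 171 and 166 CPM at day 4 and no count in crypts, at least 1140-fold higher. Of 7 tested markers of squamous epithelium, a list that holds Krt4, 5 rose, with a sum of 126 to 202 CPM at day 4 and 2.8 to 6.68 CPM in crypts. Krt4 held most of that sum at day 4. Trp63 and Krt5, which define squamous basal cells, had 1 and 5 counts at day 4 and none in crypts.

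Gap junction genes went both ways, 4 higher and 3 lower of 7 (2 and 3 under library totals), with Gjb1 down by 4.04 on the log2 scale. The brush border was divided as well, with 9 higher, 9 lower and 5 not called of 23. Ezrin, Ezr, which ties microvilli to the membrane, rose by 1.05 ± 0.08, Cobl by 1.52 ± 0.09 and Pls1 by 0.64 ± 0.08. Villin, Vil1, fell by 0.6 on the log2 scale. The motor Myo1a went from 467, 651 and 631 CPM to 64.8, 52.3 and 44 CPM (-3.44 ± 0.15, adjusted p = 6.97e-13), espin, Espn, fell by 2.57 and the microvillar cadherin Cdhr5 by 1.65. Its partner Cdhr2 stood near the threshold (0.23 ± 0.09, adjusted p = 0.0353). That call was lost under library totals, the 8 CPM filter and the compared libraries alone. It was also lost without day 4 replicate 1, crypts replicate 1 or crypts replicate 3.

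Genes of sodium absorption fell. Of 16 members, 14 fell and 2 were not called, with a median of -2.96 (0 higher by edgeR, at an unadjusted p under 0.05 and by DESeq2). The subunits of the epithelial sodium channel differed. Scnn1a stood at 124, 113 and 122 CPM at day 4 and 138, 120 and 122 CPM in crypts, with overlapping groups, and was not called (-0.08 ± 0.09), although library totals called it lower (-0.25). Scnn1b had 2 counts over the day 4 libraries and 176 over crypts, a ratio of crypts to day 4 of 113 (95% interval 30.9 to 943, counting error only). Scnn1g had none at day 4 and was at least 25.3-fold lower.

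The electroneutral route fell too. Slc9a3, the NHE3 exchanger of the apical membrane, went from 99.5, 166 and 153 CPM to 2.33, 1.12 and 1.7 CPM (-6.33 ± 0.27, adjusted p = 5.6e-13), and Slc9a2 fell by 1.22 on the log2 scale. Nr3c2, the mineralocorticoid receptor, fell by 1.8, the kinase Sgk1 by 2.19, and Hsd11b2, the enzyme that shields the receptor from glucocorticoids, by 9.43 (-8.78 when day 4 replicate 1 is left out, -11.54 when replicate 2 is). Tsc22d3, which corticosteroids induce, was not called (-0.65 ± 0.27), though library totals, DESeq2, no filter, the 8 CPM filter and 4 of the fits with 1 library left out called it lower. The sodium pump, which drives this uptake from the basolateral side, fell by 1.08 on the log2 scale in its beta subunit Atp1b1, from 1320, 1260 and 1430 CPM to 726, 628 and 545 CPM. Of the 8 pump genes tested 4 fell and 2 rose. Atp1b3 rose by 0.68 ± 0.2, and Fxyd4 was called higher with overlapping groups, a call lost under library totals, the 8 CPM filter, the compared libraries alone, and without day 4 replicate 1, day 4 replicate 3, crypts replicate 2 or crypts replicate 3. Each of these left 1 member higher.

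**Figure D4:**
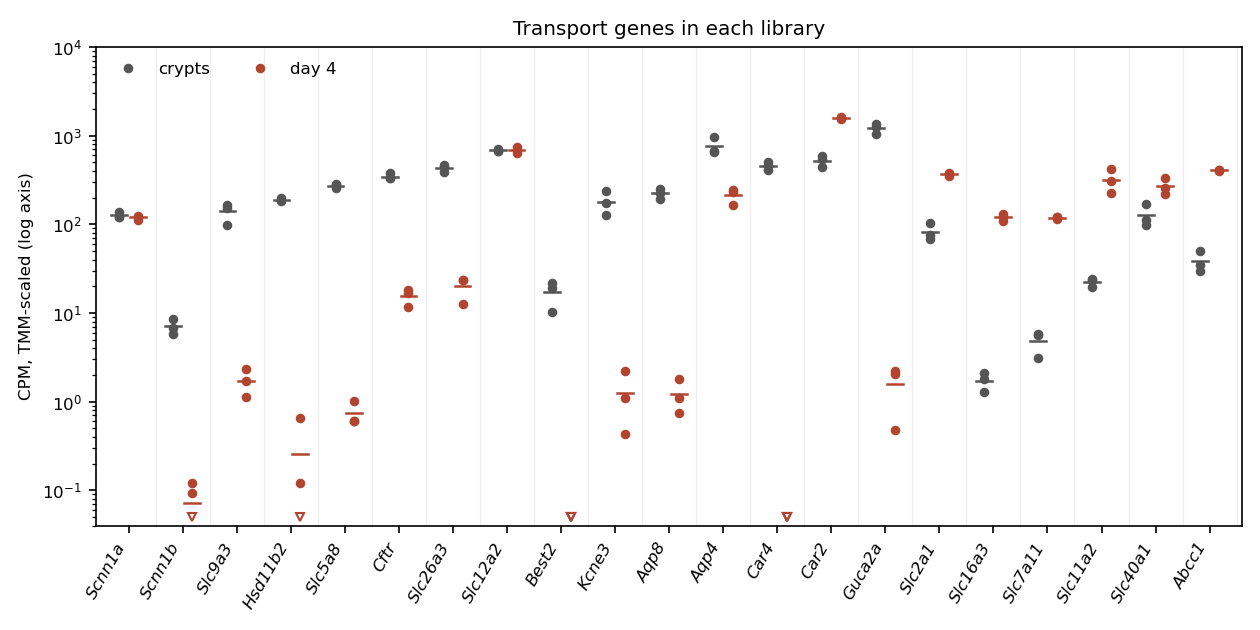
TMM-scaled CPM of transport genes in each library on a log axis, crypts in grey and day 4 in red, with bars at group means and open triangles at the foot for libraries without a count. Sodium absorption, chloride exchange, aquaporin and guanylin genes lie lower at day 4, Scnn1a and Slc12a2 overlap, and Slc2a1, Slc16a3, Slc7a11, Slc11a2 and Abcc1 lie higher.

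Chloride and bicarbonate transport counted 8 higher, 12 lower and 6 not called of 26. Cftr, the channel that secretes chloride, stood at 329, 331 and 378 CPM in crypts and 16.6, 11.7 and 18 CPM at day 4 (-4.49 ± 0.2, adjusted p = 9.75e-13). Slc12a2, the NKCC1 carrier that loads the cell with chloride for secretion, stood at 636, 750 and 693 CPM at day 4 and 672, 663 and 712 CPM in crypts and was not called (0.02 ± 0.08). Slc26a3, the exchanger that absorbs chloride, fell from 448, 390 and 464 CPM to 23.7, 23.7 and 12.6 CPM (-4.42 ± 0.2). The bicarbonate channel Best2, known from goblet cells, had no count at day 4 and was at least 159-fold lower. Ano1 was not called (0.16 ± 0.13, but called higher without crypts replicate 1, at 0.35), Clcn2 fell by 2.46, and Ano6, Clic1 and Clic4 rose by 1.61, 0.98 and 1.84.

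Potassium channels fell in 11 of 18 cases and 1 rose. Kcnq1, the basolateral channel that keeps the driving force for chloride secretion, went from 103, 97.2 and 102 CPM to 44.4, 51.5 and 52.3 CPM (-1.03 ± 0.11). Its partner Kcne3 went from 172, 128 and 237 CPM to 0.431, 2.24 and 1.09 CPM (-7.15 ± 0.46, and -7.95 without day 4 replicate 2). Kcnma1, the channel of luminal potassium secretion, fell by 5.44 on the log2 scale (6.13 without day 4 replicate 1) and Kcnk5 by 3.64. Kcnk1 was not called (-0.11 ± 0.1).

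All 4 aquaporins tested fell. Aqp8, the water channel of surface cells, went from 251, 223 and 195 CPM to 1.81, 0.748 and 1.09 CPM (-7.48 ± 0.25, adjusted p = 2.08e-14). Aqp4, of the basolateral membrane, kept more of its level, at 164, 233 and 244 CPM against 658, 673 and 967 CPM (-1.85 ± 0.16). Aqp1 had 1 count at day 4 and 961 in crypts, a ratio of 1240 (95% interval 222 to 48900). Carbonic anhydrases, which supply bicarbonate and protons, rose in 3 and fell in 4 of 10 cases, with a median of 0.22, or -0.23 with the members at or near 0 set to their bounds. Car4, on the apical surface, had 459, 413 and 502 CPM in crypts and no count at day 4, at least 4730-fold lower. Cytosolic Car2 rose from 546, 442 and 584 CPM to 1610, 1570 and 1530 CPM (1.58 ± 0.09), and Car9, a membrane form known to respond to low oxygen, from 33.4, 33.3 and 39.7 CPM to 375, 305 and 322 CPM (3.23 ± 0.11, adjusted p = 5.58e-14). Car8 fell by 5.46 and Car12 by 3.46 on the log2 scale.

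The guanylin axis, through which luminal peptides raise cyclic GMP and fluid secretion, fell in 6 of 7 members. The ligand Guca2a went from 1250, 1050 and 1350 CPM to 2.07, 2.24 and 0.484 CPM (-9.48 ± 0.27, adjusted p = 3.52e-15), and Guca2b fell by 4.48 on the log2 scale. The receptor Gucy2c went from 413, 482 and 473 CPM to 73.8, 70.2 and 74.2 CPM (-2.65 ± 0.11). Of the phosphodiesterases, Pde2a fell by 3.98, Pde9a by 1.64 and Pde5a by 0.53, and the kinase Prkg2 was not called (-0.24 ± 0.13, but called lower under library totals, with the 8 CPM filter and without crypts replicate 3).

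Markers of absorptive colonocytes, a list that shares Car1, Car4, Aqp8, Slc26a3, Guca2a, Slc9a3 and Slc5a8 with the transport lists, fell in all 16 cases. Their sum was 1670 to 2590 CPM at day 4 and 11400 to 16300 CPM in crypts. Car1 held most of that sum at day 4, at 1520, 1680 and 1130 CPM against 2060, 4350 and 3180 CPM in crypts. The part of this marker list in the fall of other transporters was not tested.

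Carriers of monocarboxylates and sugars went both ways. Slc5a8, which takes up butyrate with sodium, went from 256, 279 and 282 CPM to 0.603, 1.03 and 0.605 CPM (-8.48 ± 0.22, adjusted p = 1.36e-15). Slc16a1, the main monocarboxylate carrier, fell by 0.34 on the log2 scale. Slc16a3, the carrier that exports lactate, went the other way, from 1.8, 1.3 and 2.08 CPM to 132, 110 and 121 CPM (6.09 ± 0.17, adjusted p = 3.4e-15), and basigin, Bsg, the chaperone of both carriers, from 541, 624 and 573 CPM to 3200, 2680 and 3190 CPM (2.38 ± 0.1). In this list of 13, 4 rose and 7 fell. Among 9 sugar carriers Slc2a1, the GLUT1 uniporter, was the 1 that rose, from 75.7, 104 and 67.8 CPM to 367, 350 and 381 CPM (2.15 ± 0.12), and 4 fell. Slc5a1, the SGLT1 carrier that takes up glucose with sodium, fell by 4.32 on the log2 scale.

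Amino acid carriers numbered 11 higher and 17 lower of 31. Slc7a11, which imports cystine, went from 5.61, 3.13 and 5.77 CPM to 116, 122 and 120 CPM (4.61 ± 0.19, adjusted p = 3.34e-13), its heavy chain Slc3a2 rose by 1.67 ± 0.11, and Slc38a1, a glutamine carrier, by 2.27 ± 0.11. Among the carriers that fell, Slc6a14, a broad sodium-coupled importer, went from 609, 819 and 763 CPM to 96.1, 78.1 and 49.3 CPM (-3.29 ± 0.19). Slc1a5 fell by 1.76, Slc36a1 by 2.7 and Slc1a1 by 6.35 on the log2 scale (7.39 without day 4 replicate 2). Slc6a6, the taurine carrier, was not called (0.03 ± 0.1).

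Metal carriers counted 12 higher and 9 lower of 29, with a median of 0.09. Iron carriers named here rose. Slc11a2, the DMT1 importer, stood at 425, 305 and 228 CPM at day 4 and 23.8, 23.9 and 19.9 CPM in crypts (3.84 ± 0.23, adjusted p = 7.59e-11). The exporter ferroportin, Slc40a1, went from 98.3, 170 and 113 CPM to 334, 259 and 222 CPM (1.09 ± 0.19), and its ferroxidase Heph rose by 1.05 ± 0.1. Both genes stood apart from crypts in every library. The copper pump Atp7a rose by 1.19 ± 0.09. The zinc importer Slc39a4 rose by 0.7 ± 0.1, while Slc39a5 fell by 4.36, Slc39a8 by 3.29 and Slc30a10 by 5.08 on the log2 scale (4.31 without crypts replicate 2).

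Carriers of bile acids, peptides, nucleosides and organic ions fell in 12 of 23 cases and rose in 3. The basolateral bile acid carrier fell in both subunits, Slc51a by 6.6 (7.34 without day 4 replicate 1) and Slc51b by 5.78 (6.44 without the same library), and the prostaglandin carrier Slco2a1 by 5.44. Slco2b1 had no count at day 4 and was at least 182-fold lower. ABC transporters were even, 12 higher and 12 lower of 35. In the Abcc family, which exports conjugates and other anions, 4 members rose, Abcc1 from 35, 30.1 and 50.3 CPM to 412, 396 and 415 CPM (3.39 ± 0.14, adjusted p = 2.88e-13), Abcc4 by 3.48 ± 0.22, Abcc5 by 2.87 ± 0.18 and Abcc3 by 0.56 ± 0.09. Abcc10, Abcc8 and Abcc6 fell by 1.2, 3.39 and 3.91 on the log2 scale. Without 1 library the value of Abcc8 ranged from -4.15 (without day 4 replicate 1) to -2.71 (without crypts replicate 3), and that of Abcc6 was -4.83 without day 4 replicate 2. Abcc2 was not called (1.03 ± 0.52), but was called higher without crypts replicate 2 (1.44). Of the multidrug pumps, Abcb1a fell from 701, 756 and 902 CPM to 446, 313 and 281 CPM (-1.18 ± 0.13) and Abcg2 by 1.33 on the log2 scale. Over all 213 solute carriers tested, 45 rose and 103 fell, with a median of -0.5.

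Across all genes, the largest changes among called genes with a mean of at least 8 CPM included genes with no count in 1 group. Ctgf, a secreted matricellular target of YAP, had 565, 844 and 723 CPM at day 4 and no count in crypts, at least 5580-fold higher. Cryab, a small heat shock protein, was at least 815-fold higher, the interleukin 5 receptor gene Il5ra at least 607-fold, and Serpinb11 at least 566-fold. Ptgs2, the inducible cyclooxygenase, had 5426 counts at day 4 and 2 in crypts, both in replicate 3, a ratio of 2110 (95% interval 583 to 17400). Atg9b had 1 count in crypts, in replicate 3, and 165, 177 and 181 CPM at day 4, a ratio of 4120 (739 to 163000). The others that rose furthest were Samd4, Arhgap40, Cyp1b1 and Alox12b, at least 348-fold, 239-fold, 221-fold and 211-fold. On the other side, Pck1, of gluconeogenesis, was at least 1810-fold lower and the carrier Slc12a8 at least 1100-fold. Nov, Hpd and Galnt5 were at least 2080-fold, 673-fold and 636-fold lower. The antibacterial lectin Reg3b had no count at day 4 and 184, 1040 and 61.8 CPM in crypts, and Spink3 none against 123, 95.9 and 32.3 CPM. Klk1 and Mptx1, at 3 and 2 counts, gave ratios of crypts to day 4 of 12200 (4180 to 59300) and 51200 (14200 to 423000).

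Genes of repair and of fetal-like epithelium rose in 23 of 24 cases, with a median of 4.04, the other not called. Msln, mesothelin, went from 1.4, 1.04 and 0.18 CPM to 654, 624 and 712 CPM (9.81 ± 0.22, and 9.11 without crypts replicate 3). Of 10 mesothelium markers, a list that holds Msln, 4 were tested, of which 3 rose and 1 was not called. Another 2 had no count at day 4, and with no filter on low counts 1 marker was called lower. Krt19 and Krt8, which rose beside Msln, are also in the keratin list, and Krt8 lost its call under library totals. Of 29 cornified envelope genes 13 passed the filter on low counts, of which 11 rose and 2 fell (1 without day 4 replicate 2 or without crypts replicate 2), with a median of 5.28, or 3.47 with members at or near 0 set to their bounds. The list's sum went the other way, 592 to 705 CPM at day 4 and 721 to 1050 CPM in crypts, where Tgm3, a transglutaminase that fell, stood at 966, 689 and 631 CPM against 3.45, 3.55 and 0.848 CPM at day 4. Tgm1, Ivl and Lor, of the envelope of stratified epithelium, had no count in crypts and were at least 76.6-fold, 74-fold and 52.3-fold higher. A list that joins glycolysis genes with known targets of hypoxia-inducible factor counted 28 higher and 1 lower of 29. Pfkfb3, which makes the activator of phosphofructokinase, rose by 5.62 ± 0.16. Of the members outside glycolysis, Bnip3, a mitophagy receptor, rose by 5.86 ± 0.2 and P4ha2, a collagen prolyl hydroxylase, by 5.14 ± 0.17. Respiratory chain genes fell in 62 of 75 cases and 1 rose, with a median of -0.78, and none rose under library totals or without day 4 replicate 1, day 4 replicate 3 or crypts replicate 2. Cox7a1 and Cox5b, subunits of cytochrome oxidase, fell by 2.92 and 1.79 on the log2 scale. Cell cycle genes fell in 26 of 35 cases and none rose (edgeR; 0 higher also at an unadjusted p under 0.05 and by DESeq2). Mcm6, of the replication licensing complex, fell by 2.75 on the log2 scale and Tyms, which makes thymidylate, by 2.71.

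The days beside the resistance peak differed from day 4 in fewer genes. Against day 3, 205 genes were higher at day 4 (1.59%) and 151 lower (1.17%), and against day 5, 540 were higher (4.2%) and 432 lower (3.36%). Both comparisons use the same day 4 libraries. The 356 calls against day 3 numbered 148, 149 and 144 without day 3 replicates 1, 2 and 3, 97 without day 4 replicate 1 and 210 without day 4 replicate 2. The 972 calls against day 5 numbered 538 without day 4 replicate 2, 558 without day 4 replicate 3 and 585 without day 5 replicate 2. Of the 577 barrier, adhesion and transport members, 25 were higher and 21 lower than at day 3, and 28 were higher and 56 lower than at day 5. Of the 11 claudins tested 0 were called between days, too few members to set them apart from the shares of all genes above. By edgeR, 0 of the 577 members were called in the same direction against both days. Of all genes tested 0.0389% were called higher against both and 0.00777% lower, so a count of 0 does not set the members apart. At an unadjusted p under 0.05 there were 6 higher and 10 lower, and DESeq2 called 1 higher and 0 lower. The share of all genes at that unadjusted threshold was not computed, so the unadjusted counts do not set members apart from other genes. Among the unadjusted 10 was Cldn4, at 287, 291 and 335 CPM at day 3, 236, 206 and 223 CPM at day 4 and 261, 272 and 314 CPM at day 5 (-0.46 ± 0.15 and -0.35 ± 0.15, adjusted p = 0.12 and 0.168).

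Members called against both days lay between day 3 and day 5. A rise past day 3 with a further rise at day 5 was called for 15 members (2.6% of the 577, against 0.707% of all genes tested), among them Slc11a2, Slc40a1, Cdhr5, Espn, Atp1b1 and Ceacam20. Slc11a2 stood at 72.4, 115 and 121 CPM at day 3, 425, 305 and 228 CPM at day 4 and 1040, 1370 and 1000 CPM at day 5. The 3 days did not overlap, and day 4 differed from day 3 by 1.63 ± 0.2 and from day 5 by -1.83 ± 0.2 on the log2 scale (adjusted p = 0.000279 and 9.41e-06). The opposite order was called for 11 members (1.91%, against 0.451% of all genes), among them Krt4, Pkp1, Itga6, Slc7a11, Slc7a5 and Cftr. Because members were chosen with earlier results known, neither share is an independent test. Krt4 fell from 317, 267 and 249 CPM at day 3 to 105, 171 and 166 CPM at day 4 and 8.26, 15.1 and 20.5 CPM at day 5. Cell cycle genes, with 23 of 35 higher at day 4 than at day 5 and 2 lower than at day 3, moved beside these. Absorptive colonocyte markers, a list that holds Ceacam20, moved as well. Of 16 markers 8 were higher at day 4 than at day 3 and 11 lower than at day 5, with 0 the other way. The part of either list in the order of these members was not tested.

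Over all 12863 genes, 5 were higher at day 4 than at both other days (0.0389%) and 1 was lower (0.00777%). Gclc, the catalytic subunit of glutamate-cysteine ligase, which starts glutathione synthesis, stood at 227, 189 and 215 CPM at day 4, 101, 132 and 130 CPM at day 3, 133, 140 and 123 CPM at day 5 and 81.3, 108 and 94.6 CPM in crypts. Every day 4 library lay above all others, by 0.79 ± 0.12 against day 3 and 0.67 ± 0.12 against day 5 (adjusted p = 0.00158 and 0.00162). Ftl1, the ferritin light chain, stood at 1510, 1210 and 1310 CPM at day 4 and at most 976 and 1060 CPM at days 3 and 5 (0.71 ± 0.13 and 0.59 ± 0.13). The other 3 were Gclm, the modifier subunit of the same ligase (0.84 and 0.42), Gsta1, a glutathione transferase (0.82 and 0.82), and Esd, which clears the glutathione adduct of formaldehyde (0.37 and 0.62). Dennd4a, of a Rab-activating family, was the 1 that was lower (-0.86 and -0.73). Gclc and Ftl1 kept both calls in every alternative run. Esd lost its call against day 3 without day 3 replicate 1 (0.35), day 3 replicate 3 (0.36) or day 4 replicate 1 (0.34). Gclm lost its call against day 5 without day 4 replicate 1 (0.36), day 4 replicate 3 (0.43), day 5 replicate 2 (0.36) or day 5 replicate 3 (0.34). Gsta1 and Dennd4a lost theirs when most single libraries of either day were left out, Gsta1 against day 3 in each of those 6 fits (0.73 to 0.97). Dennd4a also lost its call against day 5 under library totals (-0.69) and with the compared libraries alone (-0.72).

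**Figure D5:**
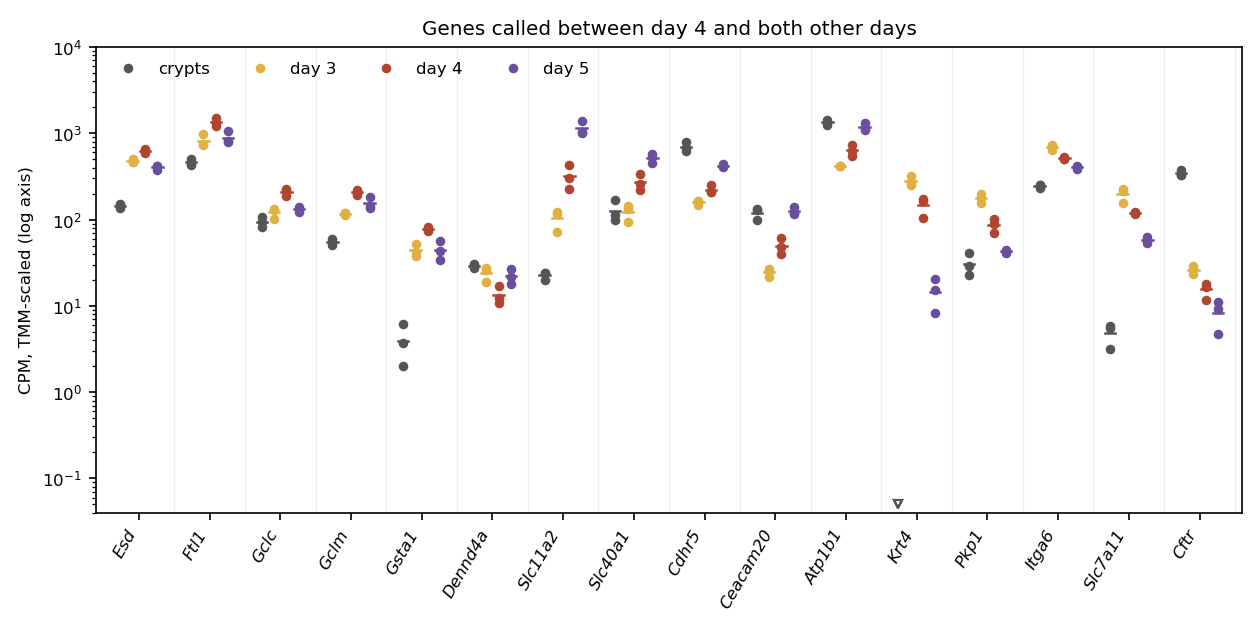
TMM-scaled CPM on a log axis in crypts (grey) and at day 3 (yellow), day 4 (red) and day 5 (purple), with bars at group means and open triangles at the foot for libraries without a count. The first 6 genes are those called at day 4 against both other days, and the rest were called between day 4 and each other day with day 4 in the middle, such as Slc11a2, which rises from day 3 to day 5, and Krt4, which falls.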

How the data were processed

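RNA-seq was made from total RNA of 12 libraries, 3 each of colonic crypts and of day 3, day 4 and day 5 monolayers. The authors deposited raw read counts per gene for each library. The tools named in the submitters' processing notes are CASAVA 1.9, TopHat2 and HTSeq, and the builds mm9 and mm10, without roles. The sources used here give neither annotation nor strand setting. Antisense and overlapping genes, and near-identical copies such as Gapdh, are therefore uncertain. HTSeq's summary lines, which name no gene, were left out, and reads in no gene made up 38.7 to 49% of each library compared.

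Genes were kept by edgeR's filterByExpr (minimum count 10 by group) and scaled by TMM. One edgeR 4.0.16 quasi-likelihood model (R 4.3.3) was fitted to all 12 libraries with group as its term, and p-values were adjusted by Benjamini-Hochberg over the 12863 genes tested. The threshold for a call was an adjusted p of 0.05. Standard errors are the log2 fold change divided by the square root of F. The scripts were tested on simulated data. For a group at 0, folds are bounds, with that group set to 3 counts in all. For 1 to 3 counts the ratio has an exact 95% interval, which covers counting error only.

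Alternatives were library totals without a scaling factor, DESeq2 1.42.0, no filter on low counts, a filter at 8 CPM, the compared libraries alone, a replicate block and leaving out each library. Genes named are members of the barrier, adhesion and transport lists, the 12 largest changes each way among called genes of at least 8 CPM without overlap, up to 4 members of each other list, and the genes called at day 4 against both other days. Members and lists were chosen with earlier results of these data known. Some members are not reported here.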

Additional observations from a re-analysis of the deposited data

Results flagged for a closer look

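Tln2 and Gja1 moved in opposite directions from crypts at day 4 and at day 5, with the difference between the days called in the same edgeR fit (Benjamini-Hochberg adjustment). Tln2, a talin that links integrins to actin, stood at 96.9, 75 and 65.2 CPM in crypts, 115, 142 and 134 CPM at day 4 and 52.2, 53.8 and 64.7 CPM at day 5. It was higher than crypts at day 4 (log2 fold change 0.73, adjusted p = 9.27e-05) and lower at day 5 (-0.47, adjusted p = 0.0062), and day 4 exceeded day 5 by 1.19 (adjusted p = 1.35e-05).

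Gja1, the gap junction protein connexin 43, stood at 6.61, 8.22 and 7.4 CPM in crypts, 12.5, 14.1 and 9.93 CPM at day 4 and 3.63, 3.59 and 5.72 CPM at day 5. It was higher than crypts at day 4 (0.71, adjusted p = 0.0335) and lower at day 5 (-0.8, adjusted p = 0.028), with day 4 above day 5 by 1.51 (adjusted p = 0.00263). Its call at day 4 against crypts was lost under library totals (adjusted p = 0.111), with no filter (0.0722) and with the compared libraries alone (0.0534). It was also lost without day 4 replicate 1 (0.0785), day 4 replicate 2 (0.126), crypts replicate 1 (0.0758), crypts replicate 3 (0.0648) or day 3 replicate 3 (0.0507).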

How the results depend on the processing

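Between day 4 and crypts, 7339 genes were called, and 5701 to 7737 under the alternatives run, which include library totals (7361), DESeq2 (7433) and a replicate block (7192). Of the main calls, 6598 were also called with library totals and 7117 with the block. The day comparisons moved more. Against day 3 the 356 calls became 631 with DESeq2, 636 with no filter, 1159 with the compared libraries alone and 97 to 492 with 1 library left out. Against day 5 the 972 calls became 538 to 1222 with 1 library left out. The 6 genes called against both days became 18 with DESeq2, 26 with no filter, 10 with the 8 CPM filter, 28 with the compared libraries alone, 4 with the block and 2 to 13 with 1 library left out. With the block Gsta1 lost its call against day 3 (adjusted p = 0.0523) and Dennd4a against day 5 (0.0566). The cause was not tested. The labels do not say whether replicate numbers pair day 4 with crypts. Deviations from the group mean correlated at 0.0311, 0.00456 and 0.0126 for same-numbered libraries and at -0.0263 to 0.0153 for differently numbered ones. Values this near 0 cannot decide whether same-numbered libraries share a source.

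Under the 8 CPM filter, which tests fewer genes, claudins called higher went from 4 to 2, mucins lower from 5 to 3, integrins lower from 5 to 0, keratins from 15 higher and 2 lower to 7 and 1, chloride genes higher from 8 to 5, potassium channels from 1 higher and 11 lower to 0 and 6, amino acid carriers lower from 17 to 6, monocarboxylate carriers lower from 7 to 3, organic ion carriers higher from 3 to 1 and ABC transporters lower from 12 to 5. Basement membrane genes called lower went from 1 to 2 with no filter. Leukocyte markers called lower went from 8 to 5 with DESeq2, to 13 with no filter and to 0 with the 8 CPM filter. That filter also took squamous markers called higher from 5 to 1 and cornified envelope genes called higher from 11 to 6. Of those called lower, it took tuft markers from 5 to 0 and fibroblast and smooth muscle markers from 6 to 0. Enteroendocrine markers called lower went from 11 to 7, stem cell markers from 7 to 3 and Hox genes from 10 to 4. No gene's call reversed. Differences near the threshold are limited by 3 libraries a group, and low genes by the crypt depth.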

Other observations

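Cholesterol synthesis genes rose in 20 of 24 cases at day 4 against crypts and 2 fell, with a median log2 fold change of 1.54 (edgeR, called at an adjusted p under 0.05). Lss, which closes the sterol ring, went from 24, 30.9 and 43.7 CPM to 238, 225 and 221 CPM (2.76 ± 0.16, SE), and Cyp51, a sterol demethylase, rose by 2.26. Of the 2 lower calls, 1 remained without day 4 replicate 2, crypts replicate 2 or crypts replicate 3. Immediate early genes counted 15 higher and 4 lower of 26. Ier3 stood at 95.8, 118 and 114 CPM against 1.8, 1.96 and 2.62 CPM in crypts, and the phosphatase gene Dusp4 rose by 5.35 ± 0.15. Fatty acid oxidation and ketogenesis genes fell in 23 of 28 cases. Ppara, a nuclear receptor that controls this pathway, went from 17.8, 43.3 and 43.9 CPM to 0.861, 1.5 and 2.06 CPM (-4.6 ± 0.48).

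Intestinal identity factors fell in 17 of 25 cases and rose in 3. Vdr, the vitamin D receptor, went from 366, 384 and 343 CPM to 14.2, 12.2 and 9.93 CPM (-4.9 ± 0.18), and Cdx1, a homeobox factor of the intestine, from 145, 120 and 152 CPM to 9.3, 8.69 and 10.8 CPM (-3.86 ± 0.33). Hox genes fell in 10 of 24 cases and rose in 3 (5 without crypts replicate 1 or day 5 replicate 1), with Hoxb6 down by 3.35 on the log2 scale. Antimicrobial genes fell in 15 of 18 cases and rose in 2. Enteroendocrine markers fell in 11 of 13 cases, with a sum of 33.7 to 42.9 CPM at day 4 and 815 to 1470 CPM in crypts, and tuft markers in 5 of 9. Stem cell markers divided, 5 higher and 7 lower of 14, with a sum of 3370 to 3680 CPM at day 4 and 2200 to 2850 CPM in crypts. That list shares Slc12a2 and Aqp4 with the transport lists, so the sum is in part that of transport genes. A list of 36 glutathione and antioxidant genes was written after the genes called at day 4 against both other days had been seen, and holds 4 of them. Its counts are therefore no independent test. It counted 8 higher and 1 lower against day 3, beside 1.59% and 1.17% of all genes. Against day 5 it counted 14 higher and 1 lower, beside 4.2% and 3.36%. Against crypts 24 were higher and 6 lower, beside 28.7% and 28.4%.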
